A study of Arabidopsis thaliana with 36 samples.

Results

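The early response of Arabidopsis thaliana seedlings to the bacterial peptide flg22 was read from wild type Col against the receptor mutant fls2, 2 h after the peptide was given. The 3 Col and 3 fls2 libraries were chosen by the genotype, treatment and time in their titles, and they are 6 of the 36 libraries of the series. The series also holds the sugar transporter triple mutant stp1/4/13 under flg22, later times, and Col seedlings given sucrose or a glucose analogue. Both groups were whole seedlings that had been moved to liquid medium with 25 mM sucrose at 6 days of age, labelled as 7 days old, kept at 22 °C with 16 h of light, and given 1 µM flg22. Col is the wild type accession, and fls2 carries a mutation in the flagellin receptor gene, whose allele is not given in the sources used here. The design text describes 3 independent trials with 1 library of each group from each. No mock-treated group is named, so fls2 under flg22 served as the background, and a difference between the groups includes any effect of the mutation without the peptide.

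FLS2 is a receptor kinase at the cell surface that binds flg22 and then pairs with the co-receptor BAK1. The pair activates cytoplasmic kinases such as BIK1, opens calcium channels, starts an oxidative burst through the NADPH oxidase RBOHD, and switches on MAP kinase cascades. WRKY and other transcription factors act downstream, and seedlings kept on flg22 are known to make antimicrobial compounds and to grow more slowly.

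Levels are given as CPM, in which TMM-scaled library totals are made equal, for Col libraries 1, 2 and 3 and then fls2 libraries 1, 2 and 3. Differences are log2 fold changes of Col over fls2 ± standard error with n = 3 libraries a group. A gene is said to be called, or higher or lower, when its adjusted p in edgeR's quasi-likelihood test was below 0.05. The standard error was computed from the log2 fold change and the F statistic of that test, whose spread was estimated over 18 libraries. Total counts were 17.8 to 19.6 M in the Col libraries and 17.2 to 18.3 M in the fls2 libraries. The second fls2 library stood apart from the others, with 3.85% of its counts on chloroplast and mitochondrial genes against 1.24% and 1.54% in the other fls2 libraries and 1.08% to 1.92% in Col. Its correlation with the other fls2 libraries across genes was 0.965 and 0.966, against 0.980 between those. Without it, 6036 genes were called in place of the 7475 given below, and leaving out any single library gave 5969 to 6659.

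The genotype labels matched the level of the receptor gene. FLS2 (AT5G46330) stood at 55.4, 34.3 and 51.5 CPM in Col and at 0.108, 0.116 and 0.203 CPM in fls2, where it had 8 counts over the group. FRK1 (AT2G19190), a receptor-like kinase gene widely used as a marker of flg22 perception, stood at 175, 138 and 186 CPM in Col and at 1.24, 0.637 and 0.506 CPM in fls2. Both genes were separated without overlap, by 8.29 ± 0.44 (adjusted p = 4.3e-10) for FLS2 and 7.70 ± 0.56 (adjusted p = 7.9e-09) for FRK1. FLS2 is the mutated gene, so its own difference is a check of the lines and not a response.

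Whole-seedling libraries were checked with tissue markers. None of 7 root hair, 6 endodermis, 5 vascular, 5 guard cell and 4 meristem and root tip markers tested was called by edgeR in the fit to 18 libraries or by DESeq2, and 5 of the 27 had an unadjusted p below 0.05. Other edgeR settings called at most 1 marker of a list in a direction. Among them were 1 root hair marker higher with only the 6 compared libraries, 1 meristem and root tip marker lower with upper quartile scaling, 1 endodermis marker higher without fls2 library 3, 1 vascular marker higher without fls2 library 2 and 1 guard cell marker higher without Col library 2. Summed marker levels overlapped for root hair, at 64.0 to 91.5 CPM in Col and 68.3 to 92.1 in fls2. They also overlapped for endodermis (106 to 151 and 80.8 to 111) and vascular tissue (165 to 219 and 140 to 235). The sums did not overlap for guard cells, higher in Col at 122 to 127 against 93.9 to 120 CPM. Nor did they for meristem and root tip, lower in Col at 3.90 to 5.06 against 5.37 to 6.68 CPM. CLV3, a stem cell peptide gene, had 1 count in Col and 2 in fls2, and the 5 seed storage genes had at most 4 counts in a group. In bulk libraries such as these, fewer cells of a type and less RNA per cell cannot be told apart.

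At 2 h, Col and fls2 differed at 7475 of 21463 genes tested, or 34.8%. Of these, 4024 (18.7% of all tested) were higher in Col and 3451 (16.1%) were lower. The counts of gene lists below are to be read beside these shares. A change of at least 4-fold was called for 1244 higher (5.8%) and 435 lower (2.03%) genes, and a change of at least 16-fold for 320 higher and 21 lower genes. The groups did not overlap at 5426 genes with Col above (25.3%) and 5317 with Col below (24.8%). The split depended on how libraries were scaled. Higher genes made up 53.8% of the calls with TMM scaling, 52.2% with RLE scaling, 39.0% with upper quartile scaling and 41.3% with library totals, and the median log2 fold change over all genes was -0.02, -0.04, -0.20 and -0.18 in that order. Of the calls with a change of at least 4-fold, 74.1% were higher with TMM and 64.4% with upper quartile scaling. Among genes called higher, 34 had no count in any fls2 library. The most counts in Col among them were 709 for AT2G33780 and 606 for AT1G30780, which were thus at least 223-fold and at least 190-fold higher in Col, taking a floor of 3 counts over the group. These floors, like all intervals from counts, cover counting error only. Another 4 genes called lower had no count in any Col library.

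The largest rises, among genes with a symbol and a mean log2 CPM of at least 3, included genes of danger peptides, peroxidases and detoxification. They were chosen by their measured change. CYP82C3, a cytochrome P450 gene, stood at 25.4, 28.2 and 22.7 CPM in Col and at 0.0539, 0.0579 and 0.152 CPM in fls2, with a difference of 8.04 ± 0.87 (adjusted p = 9.5e-07). It had only 5 counts over the fls2 group, so the size of its fold is uncertain. PRX52, a secreted class III peroxidase gene, stood at 162, 192 and 254 CPM in Col and at 0.485, 1.5 and 0.759 CPM in fls2. Its difference was 7.79 ± 0.47 (adjusted p = 1.2e-09), and no fls2 library came near any Col library. PROPEP3, the precursor gene of a danger peptide, stood at 188, 133 and 169 CPM in Col and at 1.13, 0.174 and 1.22 CPM in fls2, a difference of 7.57 ± 0.54 (adjusted p = 6.5e-09). WRKY30, PROPEP2 and the tau glutathione transferase gene GSTU12 followed at 7.41 ± 0.73, 6.97 ± 0.52 and 6.93 ± 0.47. CYP82C3 and its neighbour CYP82C2 are near-identical, so their reads could be split by the counting and each value is uncertain.

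**Figure D1:**
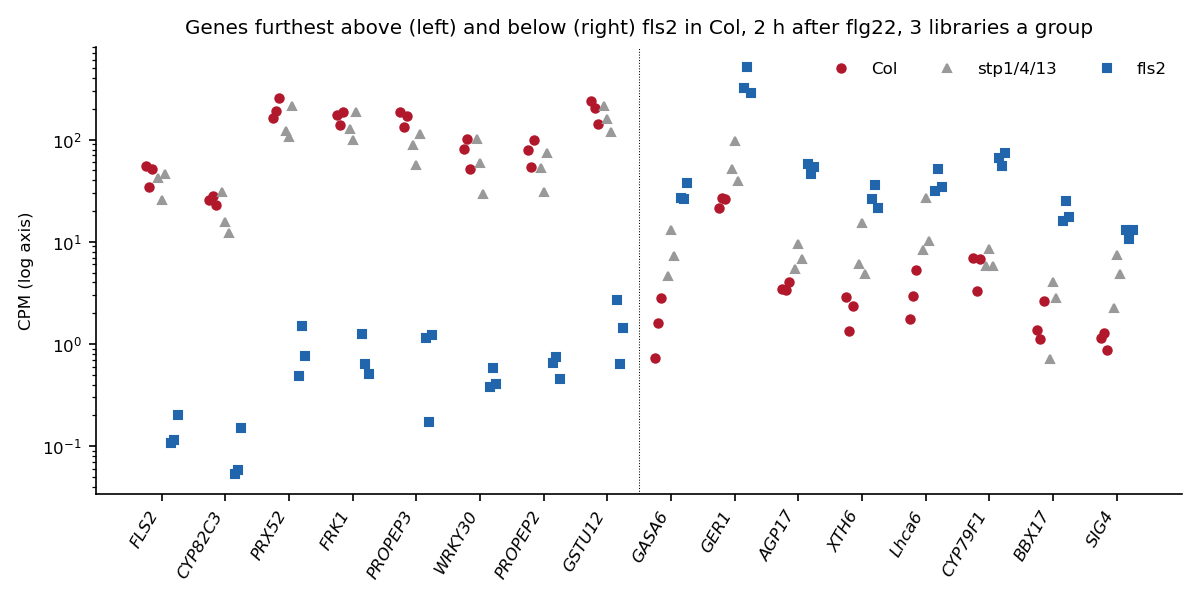
Level 2 h after flg22 of the 8 genes furthest above fls2 in Col, FLS2 as the mutated gene among them, and of the 8 furthest below, as CPM on a log axis, with 1 point per library of Col, stp1/4/13 and fls2. Col and fls2 libraries do not overlap at any of the 16 genes, and FRK1 lies between 138 and 186 CPM in Col against 0.506 to 1.24 in fls2.

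The stretches shown are the 250 bases before the annotated start of FRK1 and of the 3 largest rises other than FLS2 and FRK1. They were picked without regard to motifs. The sequences are from the RefSeq assembly TAIR10.1, written 5′ to 3′ on the strand of the gene. The W-box core TTGAC, the sequence that WRKY factors bind, stands in each of them, as in 45.6% of the promoters of all genes tested. Capitals mark TTGAC or its reverse complement GTCAA. FRK1 is read from the minus strand of chr2:8329945-8330194, CYP82C3 from the plus strand of chr4:15454833-15455082, PRX52 from the minus strand of chr5:1580876-1581125 and PROPEP3 from the plus strand of chr5:25939312-25939561.
FRK1: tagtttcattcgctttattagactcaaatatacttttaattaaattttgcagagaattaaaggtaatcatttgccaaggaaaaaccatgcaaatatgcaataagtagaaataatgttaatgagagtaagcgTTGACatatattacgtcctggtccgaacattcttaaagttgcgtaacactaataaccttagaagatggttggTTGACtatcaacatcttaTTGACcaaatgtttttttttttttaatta
CYP82C3: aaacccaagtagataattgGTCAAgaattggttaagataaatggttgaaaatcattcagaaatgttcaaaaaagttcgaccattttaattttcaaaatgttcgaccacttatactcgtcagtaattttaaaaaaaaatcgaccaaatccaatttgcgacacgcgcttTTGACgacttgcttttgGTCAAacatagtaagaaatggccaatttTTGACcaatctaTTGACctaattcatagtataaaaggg
PRX52: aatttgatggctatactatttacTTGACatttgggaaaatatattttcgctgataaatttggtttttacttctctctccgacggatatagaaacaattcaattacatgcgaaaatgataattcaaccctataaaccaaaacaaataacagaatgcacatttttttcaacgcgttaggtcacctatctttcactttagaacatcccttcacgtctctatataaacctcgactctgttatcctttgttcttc
PROPEP3: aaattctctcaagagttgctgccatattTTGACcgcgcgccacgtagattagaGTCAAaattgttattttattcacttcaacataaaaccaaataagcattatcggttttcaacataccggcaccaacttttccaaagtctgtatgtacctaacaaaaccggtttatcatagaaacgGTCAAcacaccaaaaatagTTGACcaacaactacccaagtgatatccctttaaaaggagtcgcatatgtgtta
The core occurred 3 times before FRK1, 5 times before CYP82C3, 1 time before PRX52 and 4 times before PROPEP3.

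The core was also common across the promoters of all genes with a large rise. TTGAC was found on either strand in 846 of 1243 promoters (68.1%) of genes called higher by at least 4-fold, in 9731 of 21356 (45.6%) of all genes tested and in 153 of 435 (35.2%) of genes called lower by at least 4-fold. Promoters with at least 2 copies made up 35.8%, 14.5% and 7.82% of the same sets. CGCG, the core bound by the calmodulin-binding CAMTA factors, was found in 14.5%, 10.8% and 6.9%. The G-box CACGTG was found in 6.28%, 7.18% and 7.13%, and the GCC-box GCCGCC, bound by ethylene response factors, in 2.41%, 1.99% and 0.92%. Both strands were searched, none of the 4 motifs holds another, and CACGTG and CGCG are each their own reverse complement. The sets were chosen by the measured change, so the shares are a description with no test, and a match is not a binding site.

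**Figure D2:**
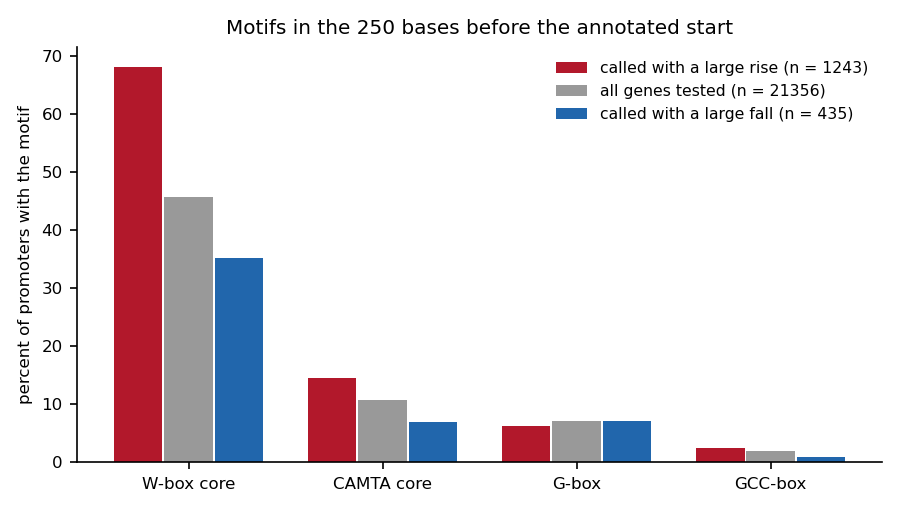
Percent of promoters, the 250 bases before the annotated start, that hold each of 4 motifs on either strand, for genes called higher by at least 4-fold, all genes tested and genes called lower by at least 4-fold. The W-box core is found in 68.1%, 45.6% and 35.2% of them, and the G-box in 6.28%, 7.18% and 7.13%.

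Genes of perception were mostly higher in Col. Of 29 pattern receptor and co-receptor genes, FLS2 and FRK1 among them, 17 were higher and 4 lower, with a median log2 fold change of 1.75 against -0.02 over all genes. RLP23, the receptor-like protein that senses a peptide of microbial necrosis-inducing proteins, stood at 39.4, 44.2 and 47.2 CPM in Col and 2.8, 5.38 and 3.44 CPM in fls2, a difference of 3.49 ± 0.49. BKK1, a co-receptor related to BAK1, rose by 3.05 ± 0.28. The 4 lower members were the wall-associated kinases WAK1 (-1.83 ± 0.52) and WAK2 (-1.45 ± 0.37), the peptidoglycan-binding LYM3 (-1.70 ± 0.49) and the co-receptor SERK2 (-1.34 ± 0.30). LYM3 did not pass without Col library 3 or without fls2 library 2 (adjusted p up to 0.057). Of 38 cysteine-rich receptor-like kinase genes tested, 27 were higher and 1 lower, with a median of 3.16. CRK20 was among the largest at 6.23 ± 0.48. CRK30 went the other way, with 0.540, 0.222 and 0.385 CPM in Col against 7.27, 5.44 and 8.45 CPM in fls2 (-4.19 ± 0.52, adjusted p = 4.8e-06). Many of these genes lie in tandem arrays of similar sequence, and reads could be split between them. Of 47 receptor-like protein genes tested, 20 were higher and 3 lower, with a median of 0.49, and 6 were lower with upper quartile scaling or DESeq2 and 5 with library totals or only the libraries of 2 h.

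Peptide precursor genes were mostly higher. Of 22 tested, 13 were higher and 2 lower, with a median of 0.93. RGF7, a root growth peptide also sensed as an immune signal, stood at 64.7, 45.5 and 70.4 CPM in Col and at 1.99, 2.26 and 2.94 CPM in fls2 (4.64 ± 0.33). IDA, the floral abscission peptide, rose by 4.32 ± 0.41. RALF23, whose peptide acts through the receptor kinase FERONIA to restrain immune receptor assembly, was lower in all Col libraries, at 12.9, 10.3 and 13.6 CPM against 72.3, 70.7 and 70.3 CPM in fls2 (-2.53 ± 0.19, adjusted p = 1.4e-08). PROPEP6 was also lower (-0.66 ± 0.23), and its call was lost without Col library 1, Col library 2, fls2 library 1 or fls2 library 2 (adjusted p up to 0.15).

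Genes of intracellular relays were mostly higher. Of 6 receptor-like cytoplasmic kinase genes, chosen members and not the whole family, 5 were higher. BIK1, the kinase released from the FLS2 complex on flg22 binding, stood at 72.5, 74.6 and 78.5 CPM in Col and at 13.6, 12.8 and 14.0 CPM in fls2, a difference of 2.48 ± 0.18 (adjusted p = 9.5e-09). Its relatives PBL2 and PBL1 rose by 2.78 ± 0.26 and 2.34 ± 0.33, and RIPK, which phosphorylates the guarded protein RIN4, rose by 1.59 ± 0.24. PBL27, a kinase of chitin signalling, differed by 0.83 ± 0.28 and lost its call with upper quartile scaling or without any 1 of 5 libraries, namely Col libraries 1, 2 and 3 and fls2 libraries 1 and 3 (adjusted p up to 0.12). BSK1 differed by 0.58 ± 0.23 and did not pass (adjusted p = 0.059), but passed with only the 6 compared libraries (adjusted p = 0.0078). Of 23 MAP kinase cascade and phosphatase genes, 18 were higher and none lower, with a median of 1.13. PP2C5, a phosphatase that acts on MAP kinases, stood at 23.6, 21.1 and 24.1 CPM in Col and at 0.377, 0.695 and 0.405 CPM in fls2 (5.53 ± 0.43). MAPKKK15 rose by 5.34 ± 0.31 and MPK11, a kinase activated by flg22, by 3.76 ± 0.51. The 5 members that did not pass were MKK7 (1.13 ± 0.77), MAPKKK18 (0.41 ± 0.61), MAPKKK3 (0.40 ± 0.25), PTP1 (0.28 ± 0.17) and MKP2 (-0.12 ± 0.16), with adjusted p from 0.23 to 0.64.

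Calcium genes were more often higher than lower. Of 22 channel and pump genes, 10 (45.5%) were higher and 3 (13.6%) lower, against 18.7% and 16.1% of all genes, with a median of 0.70. The calcium pump gene ACA12 rose by 3.22 ± 0.26 and the cyclic nucleotide-gated channel gene CNGC13 by 3.08 ± 0.35. The 2 channel subunits CNGC2 and CNGC4, which are known to form a calcium channel used in immunity, were lower. CNGC2 stood at 4.02, 6.61 and 3.24 CPM in Col and at 24.3, 28.4 and 24.9 CPM in fls2 (-2.48 ± 0.27, adjusted p = 1.2e-06). CNGC4 stood at 3.84, 4.45 and 2.25 CPM in Col and at 20.4, 22.9 and 20.3 CPM in fls2 (-2.59 ± 0.30, adjusted p = 1.8e-06). Neither gene had a Col library that reached an fls2 library. The vacuolar pump gene ACA4 was lower by less (-1.20 ± 0.33) and did not pass without Col library 1 (adjusted p = 0.056). Of 14 calmodulin-like genes, which encode calcium sensors, 5 (35.7%) were higher, against 18.7% of all genes, and none lower. Among the higher were CML42 (3.18 ± 0.25), CML9 (3.14 ± 0.20) and CML12 (2.94 ± 0.32).

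Genes of the oxidative burst were higher or did not pass. RBOHD, the NADPH oxidase of the flg22 burst, stood at 66.1, 58.5 and 67.5 CPM in Col and at 18.1, 15.1 and 17.5 CPM in fls2 (1.92 ± 0.30, adjusted p = 5.3e-05). RBOHA and RBOHF rose by 1.89 ± 0.32 and 1.69 ± 0.22, while RBOHB (1.04 ± 0.59) and RBOHC (0.61 ± 0.26) did not pass. All 5 passed with only the 6 compared libraries. Of 7 class III peroxidase genes, chosen members and not the whole family, 6 were higher. Beside PRX52, PER4 rose by 6.83 ± 0.50 and PRX71 by 4.15 ± 0.28, and PRX33 and PRX34, a tandem pair known to feed the apoplastic burst, by 1.83 ± 0.27 and 1.07 ± 0.20. PRX53 differed by 0.19 ± 0.45 (adjusted p = 0.78).

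Genes of ubiquitin ligases, and those of intracellular immunity, were higher or did not pass. Of 22 plant U-box ubiquitin ligase genes, 11 were higher and none lower. PUB22, PUB23 and PUB24, a triplet known to restrain flg22 signalling, differed by 4.76 ± 0.32, 4.68 ± 0.25 and 4.34 ± 0.38. PUB23 stood at 234, 184 and 203 CPM in Col and at 7.81, 8.16 and 8.15 CPM in fls2. ATL31, a RING ubiquitin ligase gene, rose by 4.74 ± 0.50. Of 14 tested members of its family, 6 (42.9%) were higher, against 18.7% of all genes, and 8 were not called. The family median was -0.09, against -0.02 over all genes. Of 24 genes of intracellular receptors and the EDS1 node, 20 were higher and none lower, with a median of 1.09. RPM1, a receptor that guards RIN4, differed by 3.8 ± 0.52, and RIN4 itself by 2.06 ± 0.18. ZAR1, another intracellular receptor, rose by 2.19 ± 0.19, and SAG101, an EDS1 partner, by 1.99 ± 0.27. The 4 that did not pass were RPP4, ADR1, TAO1 and SUMM2, between -0.45 and 0.29.

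**Figure D3:**
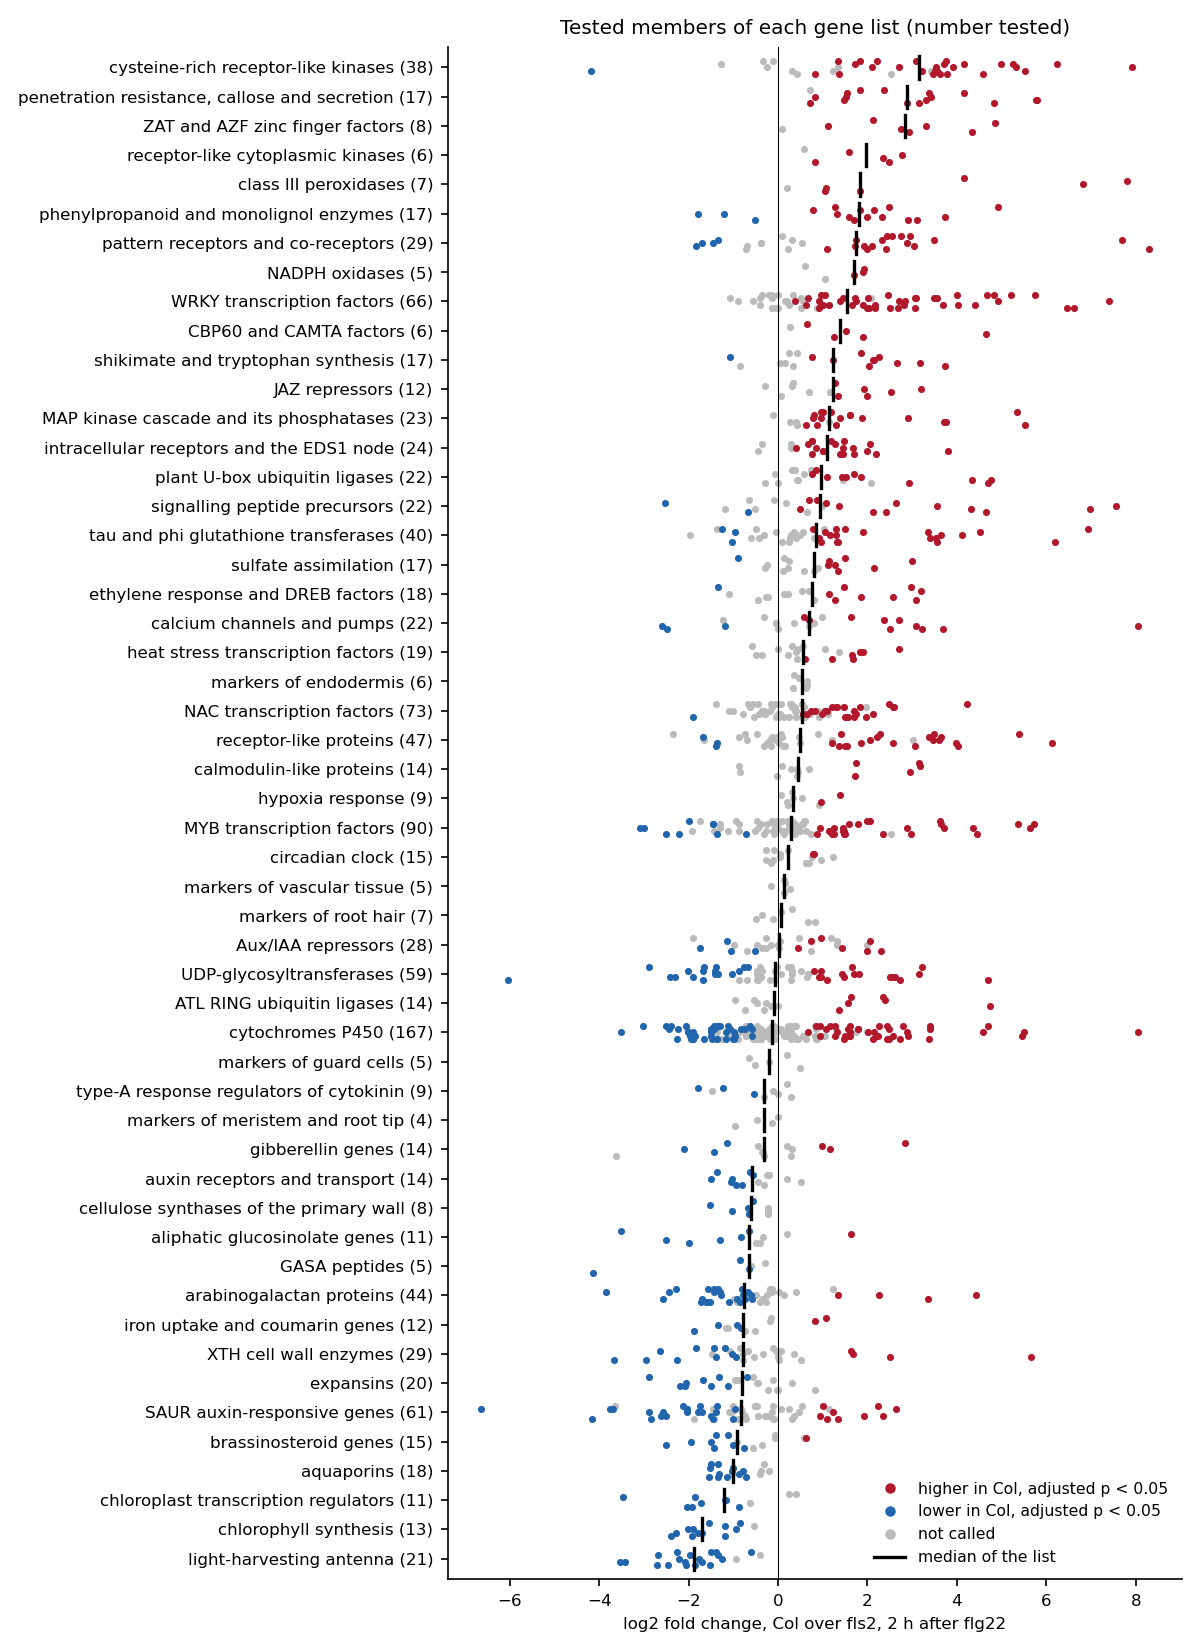
Log2 fold change of Col over fls2 for every tested member of each gene list, 1 point per gene, with the number tested in brackets, calls in colour and the median of the list as a black bar. Lists are ordered by median, from 3.16 for the cysteine-rich receptor-like kinases to -1.87 for the light-harvesting antenna.

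Transcription factor families rose unevenly. Of 66 WRKY genes tested, 43 were higher and none lower, with a median of 1.55. WRKY30 stood at 81.4, 101 and 51.0 CPM in Col and at 0.377, 0.579 and 0.405 CPM in fls2. WRKY8 differed by 5.74 ± 0.49. Upper quartile scaling, and fits to the 2 h libraries alone, called up to 2 WRKY genes lower. Of 8 ZAT and AZF zinc finger repressor genes, 7 were higher, with a median of 2.84, led by ZAT11 (4.85 ± 0.34) and AZF1 (4.33 ± 0.33). ZAT7 did not pass at 0.08 ± 0.47, and its sign turned with upper quartile scaling or library totals. Of 18 ethylene response and DREB factor genes, 8 were higher and 1 lower, among them ERF5 (3.21 ± 0.23), ERF1 (3.09 ± 0.53) and ERF6 (2.98 ± 0.36), with DREB26 lower (-1.35 ± 0.28). Of 6 CBP60 and CAMTA factor genes, chosen members and not the whole families, 5 were higher, and 3 without Col library 1 or fls2 library 2. CBP60G, which switches on salicylic acid synthesis, rose by 4.64 ± 0.37 and stood at 74.9, 52.3 and 63.7 CPM in Col against 2.15, 2.32 and 3.14 CPM in fls2. Its relative SARD1 differed by 1.53 ± 0.43 and lost its call without Col library 1 or fls2 library 2 (adjusted p up to 0.062). HSFB1, a heat stress factor gene, rose by 2.7 ± 0.27. Of 19 heat stress factor genes, 7 (36.8%) were higher, against 18.7% of all genes, and none lower.

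MYB genes were more often higher than lower. Of 90 tested, 27 (30.0%) were higher and 9 (10.0%) lower, against 18.7% and 16.1% of all genes, with a median of 0.29. MYB15, an activator of lignin genes after flg22, stood at 262, 199 and 260 CPM in Col and at 4.68, 1.56 and 8.20 CPM in fls2 (5.63 ± 0.51). MYB51, the main activator of indole glucosinolate synthesis, differed by 4.46 ± 0.29. The largest falls were at MYB111, MYB75, MYB29 and MYB16. MYB111, an activator of flavonol synthesis, stood at 3.90, 3.33 and 4.23 CPM in Col and at 35.1, 39.0 and 23.6 CPM in fls2 (-3.09 ± 0.45). MYB75, an activator of anthocyanin genes, was lower by -3.0 ± 0.67, and MYB29 and MYB16 by -2.50 ± 0.65 and -2.23 ± 0.26. Of 73 NAC genes tested, 24 (32.9%) were higher and 1 (1.37%), NAC044 (-1.90 ± 0.46), lower, against 18.7% and 16.1% of all genes. Without Col library 1 or Col library 3, 2 were lower.

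Hormone genes differed in direction between lists and within some of them. Of 12 JAZ genes, the repressors and early targets of jasmonate signalling, 6 were higher and none lower. JAZ1 stood at 119, 91.6 and 80.8 CPM in Col and at 19.2, 7.70 and 23.7 CPM in fls2 (2.52 ± 0.33), and JAZ10 rose by 1.93 ± 0.40. The second fls2 library was the lowest of its group at JAZ1, JAZ5, JAZ6, JAZ9 and JAZ10. JAZ8 did not pass without Col library 1, JAZ5 without fls2 library 2 and JAZ9 without Col library 2 or fls2 library 2 (adjusted p up to 0.066). Of 15 brassinosteroid genes, 8 were lower and 1 higher, with a median of -0.92. BES1, a transcription factor of the pathway, stood at 13.1, 19.1 and 18.7 CPM in Col and at 64.8, 70.7 and 59.6 CPM in fls2 (-1.94 ± 0.33). The target factor BEE2 was lower by -2.51 ± 0.45 and the synthesis enzymes BR6OX2 and CPD by -1.51 ± 0.25 and -1.43 ± 0.20, while BIN2, the kinase that inhibits the pathway, was higher by 0.63 ± 0.14. Of 14 auxin receptor and transport genes, 8 were lower and none higher, led by the efflux carriers PIN3 (-1.51 ± 0.36) and PIN7 (-1.37 ± 0.35). Only 5 of them were lower without Col library 1 or fls2 library 2. Of 61 SAUR genes tested, early auxin targets of which many are similar copies, 22 were lower and 9 higher, and the number lower fell to between 13 and 14 without Col library 1, Col library 2 or fls2 library 2. SAUR16 was among the lower (-4.16 ± 0.67) and SAUR45 among the higher (2.63 ± 0.28). Of 14 gibberellin genes tested, 3 (21.4%) were higher and 3 (21.4%) lower, against 18.7% and 16.1% of all genes, and 8 were not called. The degrading enzyme GA2OX6 was higher (2.83 ± 0.29), as were GID1B and GA2OX2. The repressors GAI (-1.14 ± 0.26) and RGL1 (-1.42 ± 0.28) were lower, as was GA3OX1. GA3OX1 lost its call without Col library 1, Col library 2 or fls2 library 2 (adjusted p up to 0.14).

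Genes of defence metabolism were mostly higher. Of 17 phenylpropanoid and monolignol enzyme genes, 14 were higher and 3 lower, with a median of 1.82. PAL1, the entry enzyme, stood at 1104, 1169 and 1373 CPM in Col and at 148, 178 and 101 CPM in fls2 (3.10 ± 0.36). C4H, the next enzyme, rose by 2.48 ± 0.20 and the reductase gene CCR2 by 4.93 ± 0.38. The 3 lower members were 4CL3 (-1.80 ± 0.56), the isoform of flavonoid synthesis, PAL3 (-1.20 ± 0.28) and ELI3-1 (-0.53 ± 0.20). Only PAL3 of the 3 kept its call without each single library in turn. Of 17 shikimate and tryptophan synthesis genes, 10 were higher and 1, PAI1 (-1.08 ± 0.36), lower. PAI1 lost its call without Col library 1, Col library 3, fls2 library 2 or fls2 library 3 (adjusted p up to 0.11). ASA1, the entry enzyme of tryptophan synthesis, stood at 370, 461 and 446 CPM in Col and at 33.1, 24.8 and 38.7 CPM in fls2 (3.72 ± 0.27), and ASB1 and TSA1 of the same route rose by 3.16 ± 0.22 and 2.66 ± 0.19. Of 17 sulfate assimilation genes, 7 were higher and 1 lower, among them APK2 (3.01 ± 0.30), which supplies active sulfate for glucosinolates, and SERAT2;1 (2.15 ± 0.24) of cysteine synthesis.

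Of 167 cytochrome P450 genes tested, 41 (24.6%) were higher and 40 (24.0%) lower, against 18.7% and 16.1% of all genes. CYP81F2, which modifies indole glucosinolates, stood at 240, 232 and 246 CPM in Col and at 6.84, 3.07 and 5.92 CPM in fls2 (5.50 ± 0.36). CYP71A12 of the camalexin and indole carbonyl nitrile route rose by 5.45 ± 0.48, and its reads could be shared with the near-identical CYP71A13. CYP79F1, the first enzyme of aliphatic glucosinolate synthesis from methionine, stood at 6.96, 3.33 and 6.81 CPM in Col and at 66.3, 55.4 and 73.7 CPM in fls2 (-3.51 ± 0.50, adjusted p = 2.5e-05). Of 11 aliphatic glucosinolate genes, 6 were lower and 1 higher, with a median of -0.64. The activators MYB28 and MYB29 were lower by -2.0 ± 0.37 and -2.50 ± 0.65 and CYP83A1 by -1.30 ± 0.31. SOT17, a sulfotransferase, was higher (1.64 ± 0.27), and MAM3, a chain elongation enzyme, differed by 0.19 ± 0.24 (adjusted p = 0.57).

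Genes of penetration resistance and secretion were mostly higher. Of 17 genes of penetration resistance, callose and secretion, 16 were higher and none lower, with a median of 2.88. MLO12, a membrane protein of the powdery mildew susceptibility family, stood at 356, 359 and 396 CPM in Col and at 7.92, 5.09 and 7.24 CPM in fls2 (5.78 ± 0.31, adjusted p = 4.3e-10). The ABC transporter gene PDR12 rose by 5.80 ± 0.59 and the syntaxin gene SYP122 by 4.15 ± 0.35. PGIP2, an inhibitor of fungal pectinases, differed by 0.72 ± 0.39 and did not pass (adjusted p = 0.17). Of 40 tau and phi glutathione transferase genes tested, 20 were higher and 3 lower, or 5 lower with only the 9 libraries of 2 h. GSTU12 stood at 237, 204 and 143 CPM in Col and at 2.69, 0.637 and 1.42 CPM in fls2, and its neighbour GSTU11 rose by 6.19 ± 0.75. GSTU20, a transferase linked to aliphatic glucosinolate synthesis, was lower (-1.03 ± 0.25). Of 59 UDP-glycosyltransferase genes tested, 17 (28.8%) were higher and 17 (28.8%) lower, against 18.7% and 16.1% of all genes. Without Col library 1 or fls2 library 2, 10 were lower.

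Genes of the photosynthetic antenna were lower or did not pass. Light-harvesting proteins bind chlorophyll and pass energy to the photosystems. Of 21 genes, 19 (90.5%) were lower, against 16.1% of all genes, and none higher, with a median of -1.87. In 20 of them every Col library lay below every fls2 library, as in 24.8% of all genes tested. LHCA6, written Lhca6 in the annotation, stood at 1.74, 2.94 and 5.27 CPM in Col and at 31.3, 51.1 and 34.2 CPM in fls2 (-3.54 ± 0.57, adjusted p = 8.4e-05). LHCB1.1, whose reads could be shared with near-identical copies, stood at 455, 865 and 925 CPM in Col and at 4408, 6117 and 3960 CPM in fls2 (-2.69 ± 0.46). LHCB7 (-0.95 ± 0.41, adjusted p = 0.083) and LHCB1.4 (-0.41 ± 0.52) did not pass. LHCB7 passed with upper quartile scaling (adjusted p = 0.038) and with only the 6 compared libraries (adjusted p = 0.041). LHCB1.4 rested on single Col libraries, at -1.51 without Col library 3, where it passed (adjusted p = 0.021), -0.13 without Col library 2 and 0.0021 without Col library 1. Together the 21 genes held 0.436% ± 0.151 (SD, n = 3) of all counts in Col and 1.9% ± 0.162 (SD, n = 3) in fls2, a difference of -1.46 percentage points. The exact permutation test, two-sided, gave p = 0.1, the smallest that 3 against 3 libraries allow. The first Col library was the lowest of its group at 0.264%, and the other Col libraries held 0.495% and 0.548%.

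**Figure D4:**
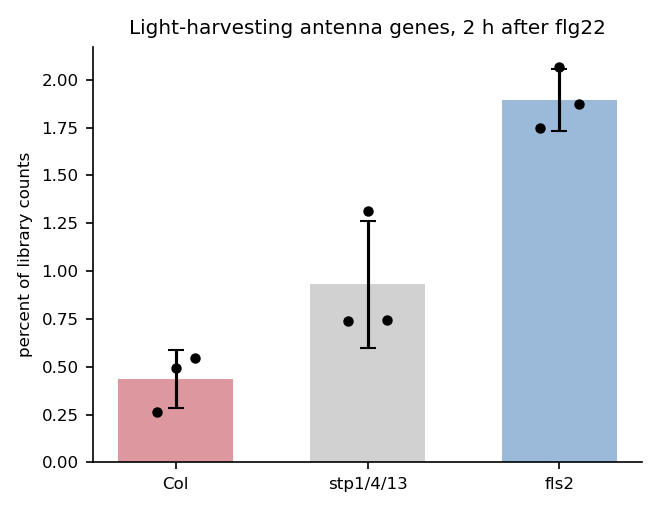
Percent of library counts on the 21 light-harvesting antenna genes 2 h after flg22, with bars for the mean, whiskers for the SD over 3 libraries and points for libraries. Col libraries hold 0.264% to 0.548% and fls2 libraries 1.75% to 2.07%, with the stp1/4/13 libraries between them at 0.737% to 1.31%.

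Pigment and plastid transcription genes were also lower or did not pass. Of 13 chlorophyll synthesis genes, 12 were lower and none higher, with a median of -1.71. PORC, a light-dependent protochlorophyllide reductase gene, stood at 10.7, 19.3 and 17.8 CPM in Col and at 72.4, 99.6 and 78.7 CPM in fls2 (-2.39 ± 0.37). GUN4 and GUN5, which act at the magnesium chelatase step, were lower by -2.29 ± 0.37 and -2.02 ± 0.28. PORA, at under 1 CPM in both groups, did not pass (-0.54 ± 0.67). Of 11 chloroplast transcription regulators, 8 were lower and none higher. The sigma factor genes SIG1, SIG2, SIG3, SIG4 and SIG6, which direct the plastid RNA polymerase, were lower by -1.93 ± 0.23, -1.73 ± 0.17, -1.17 ± 0.17, -3.47 ± 0.42 and -2.03 ± 0.19, whereas SIG5 differed by 0.41 ± 0.39 (adjusted p = 0.45). SIG4 stood at 1.14, 1.28 and 0.879 CPM in Col and at 13.1, 10.6 and 12.9 CPM in fls2. HY5 (0.24 ± 0.28) and GLK2 (-0.63 ± 0.26, adjusted p = 0.073) did not pass. GLK2 passed with upper quartile scaling, library totals, DESeq2, only the 6 compared libraries or only the 9 libraries of 2 h (adjusted p from 0.016 to 0.050). GLK1 (-0.88 ± 0.33) lost its call without Col libraries 1, 2 or 3 or fls2 libraries 1 or 3 (adjusted p up to 0.13). CGA1 (-1.87 ± 0.57) did not pass without Col library 1 or fls2 library 2 (adjusted p up to 0.074).

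Cell wall and membrane genes tied to expansion were mostly lower where called. None of 20 expansin genes tested was higher and 9 were lower, with a median of -0.80. The expansin gene EXP3 stood at 5.52, 4.17 and 7.91 CPM in Col and at 35.6, 52.7 and 41.3 CPM in fls2 (-2.88 ± 0.43). Of 29 xyloglucan-modifying XTH genes, 10 (34.5%) were lower and 4 (13.8%) higher, against 16.1% and 18.7% of all genes. XTH6 (-3.67 ± 0.52), XTH33 (-2.94 ± 0.50) and XTH7 (-2.63 ± 0.44) were lowest and XTH18 was higher (2.50 ± 0.28). Of 44 arabinogalactan protein genes, 24 were lower and 4 higher. AGP17 stood at 3.42, 3.39 and 4.07 CPM in Col and at 57.8, 46.0 and 54.0 CPM in fls2 (-3.86 ± 0.27, adjusted p = 5.7e-09), whereas AGP5 rose by 4.43 ± 0.30. Of 18 aquaporin genes, 12 were lower and none higher, with a median of -1.01 and the largest differences at PIP2;6 (-1.55 ± 0.26) and PIP1;4 (-1.53 ± 0.25). Of 8 genes for cellulose synthesis in the primary wall, 5 were lower, CESA5 most (-1.53 ± 0.22), and CESA3 (-0.23 ± 0.14) did not pass except with upper quartile scaling or library totals. Among genes with a symbol and a mean log2 CPM of at least 3, the largest falls were at GASA6, a gibberellin-regulated peptide gene (-4.13 ± 0.43), and GER1, a germin-like protein gene (-3.91 ± 0.36). GASA6 stood at 0.720, 1.61 and 2.8 CPM in Col and at 27.0, 26.2 and 37.7 CPM in fls2. GER1 stood at 21.7, 26.8 and 26.1 CPM in Col and at 324, 511 and 287 CPM in fls2. BBX17, a B-box zinc finger gene, was lower by -3.51 ± 0.55.

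The calls of clock and hypoxia genes depended on the settings. Of 15 circadian clock genes, 2 were higher, PRR7 (0.78 ± 0.20) and ELF4 (0.81 ± 0.26), a share of 13.3% against 18.7% of all genes. With only the 6 compared libraries 6 were higher, with only the 9 libraries of 2 h 7 were, and with upper quartile scaling 1 was. Leaving out Col library 1, fls2 library 2 or fls2 library 3 also left 1. ELF4 lost its call with upper quartile scaling and without any 1 library other than Col library 2 (adjusted p up to 0.090). Of 9 hypoxia genes, 2 (22.2%) were higher, a share near the 18.7% of all genes. DESeq2 called 1 higher, and RLE scaling, upper quartile scaling or library totals called 0. Without Col library 1 or 2, 1 hypoxia gene was higher, and without any other single library 0 were.

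The difference between Col and fls2 was then compared with that at 24 h, to ask which differences changed with time. The interaction was called at 2262 of 21463 genes (10.5%), with 1296 (6.04%) negative, where the difference was lower at 24 h, and 966 (4.5%) positive. With the replicate number as a block within each time, 3721 were called. Of the 17 penetration resistance, callose and secretion genes, 9 had a negative and none a positive change. Of 21 antenna genes, 14 had a positive and none a negative change, as had 10 of 13 chlorophyll synthesis genes. WRKY30 stood at 77.8 ± 25.1 CPM (SD, n = 3) in Col at 2 h and at 4.18 ± 3.31 CPM at 24 h, against 0.454 ± 0.11 and 1.11 ± 0.677 CPM in fls2. Its change between times was called. PRX52 stood at 203 ± 47.1 CPM in Col at 2 h and at 47.5 ± 16.6 CPM at 24 h, against 0.916 ± 0.528 and 0.499 ± 0.241 CPM in fls2, and its change was not called (-1.27 ± 0.66, adjusted p = 0.26). None of the root hair markers was called at 2 h in the same fit, and 6 of 7 had a negative change.

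**Figure D5:**
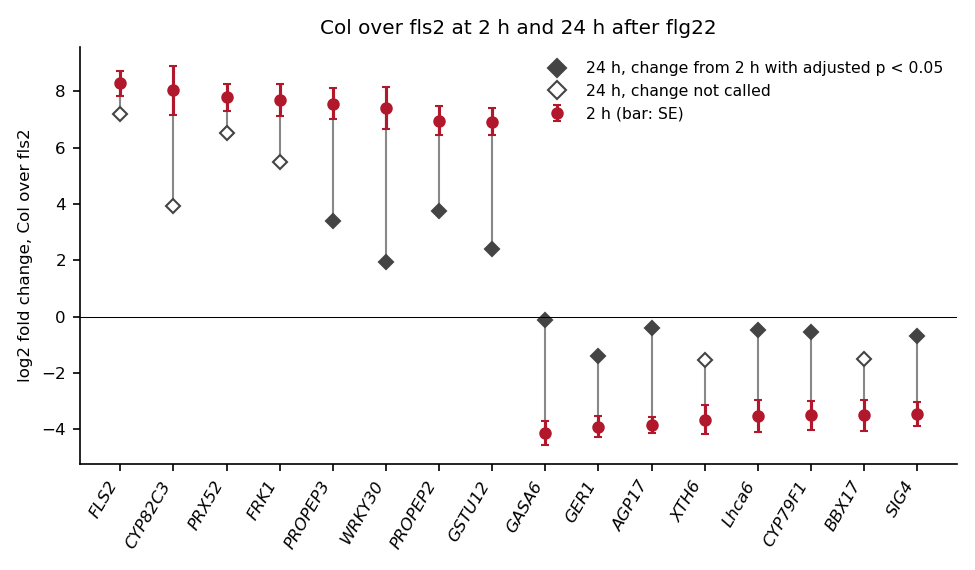
Log2 fold change of Col over fls2 at 2 h (red points, with bars for the standard error) and at 24 h (diamonds, from the same fit) for the 8 genes furthest above fls2 in Col, the mutated gene FLS2 among them, and the 8 furthest below. Filled diamonds mark a change between times with an adjusted p below 0.05, and GASA6 moves from -4.13 at 2 h to -0.12 at 24 h.

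The stp1/4/13 libraries of 2 h came from seedlings with mutated sugar transporters. FRK1 stood at 127, 99.0 and 188 CPM in them, MLO12 at 286, 247 and 415 CPM, and AGP17 at 5.37, 9.44 and 6.76 CPM. Their antenna share, 0.737%, 1.31% and 0.744%, lay between the ranges of Col and fls2. They are given side by side as levels, since the comparison of stp1/4/13 with fls2 would share its fls2 libraries with the one above.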

How the data were processed

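The deposited table holds raw counts of reads per gene, made by the authors from strand-specific 3′ digital gene expression libraries. Trimming with fastp 0.19.7, alignment with STAR 2.6.1b and counting with featureCounts 1.6.0 are named, with TAIR10, per the submitters' processing notes. The strand setting of counting is not given in the sources used here, and 53 of 251 genes looked up, FLS2, FRK1, GASA6, GER1, BBX17 and SIG4 among them, overlap an annotated gene on the other strand. From the deposited counts, CPM were computed with TMM scaling. Genes were tested with edgeR 4.0.16 (R 4.3.3) by the quasi-likelihood test, fitted to the 18 libraries of 2 h and 24 h after filterByExpr, with Benjamini-Hochberg adjustment over all 21463 genes. The table has 32833 loci, of which 32548 matched RefSeq TAIR10.1 and 10804 have a symbol. The antenna share was tested by exact permutation. The fitting script was tested on simulated data. The edgeR p-values rest on the spread within groups of 3 libraries, estimated over all 18 libraries of the fit and shared in part across genes. Members and gene lists were chosen with earlier results of these data known. Lists not built from a symbol pattern hold chosen members and not whole families. Members whose symbol could not be matched to a locus were left out. Named genes were FLS2, FRK1, the 8 largest rises and falls (symbol given, average log2 CPM 3 or more, 1 direction in all same-numbered libraries), and in each list all members up to 12 tested or else up to 4 of the largest in each direction, with members that did not pass where few. Only some are printed. No fitted fold is printed for a gene with no count in a group. Genes with few counts in a group were kept, such as CYP82C3 with 5 counts in fls2. Alternatives were other scalings and filters, DESeq2 1.42.0, a replicate block, fewer libraries in the fit, and leaving out each library.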

Additional observations from a re-analysis of the deposited data

Results flagged for a closer look

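For 10 of the 16 genes named for the size of their difference at 2 h, the mutated gene FLS2 not among the 10, the difference between Col and fls2 was not the same at 24 h by edgeR's interaction test (adjusted p below 0.05). The change, as the log2 difference at 24 h minus that at 2 h, was -4.17 for PROPEP3, -5.46 for WRKY30, -3.23 for PROPEP2 and -4.54 for GSTU12 among the rises. It was 4.01 for GASA6, 2.53 for GER1, 3.46 for AGP17, 3.08 for Lhca6, 2.97 for CYP79F1 and 2.79 for SIG4 among the falls. In each of the 10 the difference at 24 h was the smaller one. The genes were chosen by their large difference at 2 h, and the same 2 h values enter the interaction. A smaller difference at 24 h is thus favoured by the choice.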

How the results depend on the processing

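Over 17 alternatives the number of genes called at 2 h lay between 5969, without Col library 1, and 9018, with the replicate number as a block within each time. Leaving out 1 library gave 5969 to 6659 genes called, 1521 to 1723 with a change of at least 4-fold, 1526 to 2324 changed between times, and an antenna difference of -1.53 to -1.37 percentage points. DESeq2 called 8085 genes. The correlations of deviations from the group mean between same-numbered Col and fls2 libraries were 0.2015, 0.0898 and 0.0211, against -0.187 to 0.097 for different numbers. Between same-numbered Col and stp1/4/13 libraries they were 0.151, 0.212 and 0.178, and between fls2 and stp1/4/13 they were 0.042, 0.123 and 0.175. All same-numbered values were thus positive. Not every Col and fls2 pair passed a cut-off of 0.1, so the numbers were not taken as pairs. The main fit therefore leaves any shared effect of a trial in the spread. Col library 3 correlated better with fls2 library 2 than with fls2 library 3. The replicate block gave 8188 genes and called LHCB7, BSK1 and GLK2, which did not pass without it, and the block within each time gave 3721 genes changed between times against 2262 without it; the cause was not tested. With 50 bases after the start included, the W-box core was found in 51.4% of all promoters, 74.8% of those with a large rise and 40.5% of those with a large fall, in a longer window. Of 4590 values of named genes under alternatives, 4424 kept their direction and side of the threshold, 100 lost and 56 gained a call, and 10 changed sign, all of them not called in either setting. ZAT7 turned to -0.0954 with upper quartile scaling and -0.059 with library totals. Leaving out 1 library gave -0.15 to 0.24 for ZAT7, -0.032 to 0.65 for MAPKKK18, -0.87 to 0.12 for JAZ4, -1.51 to 0.0021 for LHCB1.4, -0.12 to 0.45 for PRX53 and -0.059 to 0.43 for MAM3. Of 1802 list counts, 1699 were within 1.5 times. Low counts limit genes near 0 CPM in a group.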

Other observations

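Of 12 iron uptake and coumarin genes tested, 4 (33.3%) were lower and 2 (16.7%) higher, against 16.1% and 18.7% of all genes tested. FER1, a ferritin gene for iron storage, stood at 65.1, 64.4 and 64.5 CPM in Col and at 211, 221 and 285 CPM in fls2 (-1.89 ± 0.28), and BTS, a ubiquitin ligase that restrains iron uptake, was higher (1.08 ± 0.21). Only 1 of the 12 was lower without Col library 1, fls2 library 1 or fls2 library 2, and 2 without Col library 3. Of 28 Aux/IAA repressor genes tested, 7 (25.0%) were higher and 4 (14.3%) lower, shares near the 18.7% and 16.1% of all genes tested. IAA19 was among the higher (2.05 ± 0.30) and IAA3 among the lower (-1.74 ± 0.46).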
